A study of Arabidopsis thaliana with 24 samples.

Results

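The genes described here encode proteins of the cytosolic ribosome of Arabidopsis thaliana: the 40S and 60S subunits and the P0, P1 and P2 proteins of the 60S stalk. The list names 60 loci by their locus identifiers, chosen by the protein they encode, with earlier results of these data known. A locus was kept where the deposited files hold an entry for it and its mean over the 24 libraries was at least 1 CPM, CPM being a gene's count scaled by the total count of its library. Of the 60 loci 55 had an entry, and 54 passed, 23 of the 40S and 31 of the 60S subunit. RPL27AB, AT1G70600 (L27a), and the L12 genes AT2G37190, AT3G53430 and AT5G60670, which the annotation gives as single-exon genes, had no entry and were not analysed here. The P0 gene AT2G40010 averaged 0.302 CPM and was left out. All 54 genes that passed were also among the 13874 genes tested, out of 22279 in each file.

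RNA was measured by 3′ end sequencing in leaves of 3-week-old plants, 3 biological replicates in each of 8 groups. The 4 genotypes were Delta28, K>R 1-9, K>R 3 and WT. The mutant lines share an h2a.z null background and express an altered HTA11, a gene of the histone variant H2A.Z: without its first 28 amino acids in Delta28, with all 9 N-terminal lysines changed to arginine in K>R 1-9, and with the third lysine alone, residue 13, changed in K>R 3. Leaves of each genotype were painted with 10 uM abscisic acid (ABA), a plant hormone whose level rises under drought, or with mock solution of DMSO in water, each with 0.01% of the wetting agent SilWet L-77, and were frozen after 4 h. By the labels no line carries unaltered HTA11 in the null background, so that the null background and the altered tail cannot be told apart in a difference from WT, and the promoter driving the transgene and the number of independent transformants were not stated in the labels.

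The cytosolic ribosome is made of ribosomal RNAs and a fixed set of proteins, nearly all of which Arabidopsis encodes in small families of paralogues, so that several genes can supply the same protein. Making ribosomes is among the largest costs of a growing plant cell, and ribosomal protein transcripts are known as a group that is regulated jointly with growth, nutrients and stress. Promoters of these genes are known for short elements named the telo box and the site II element, the site II element being bound by TCP factors, while the ABA response element, bound by bZIP factors, has ACGTG as its core.

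The promoters below belong to genes the results turn on: the L10 family, whose members moved in different directions, and RPSAA, AT3G59540 (L38) and AT5G47930 (S27), the members called lower within WT as well as over all genotypes. Each is the 250 bases before the annotated start of the gene in the RefSeq annotation of TAIR10.1, 5′ to 3′ on the strand of the gene, with telo boxes (AAACCCTA) and site II elements (TGGGCC or TGGGCT), searched on both strands, in capitals.
RPL10C (chr1:24838840-24839089, plus strand): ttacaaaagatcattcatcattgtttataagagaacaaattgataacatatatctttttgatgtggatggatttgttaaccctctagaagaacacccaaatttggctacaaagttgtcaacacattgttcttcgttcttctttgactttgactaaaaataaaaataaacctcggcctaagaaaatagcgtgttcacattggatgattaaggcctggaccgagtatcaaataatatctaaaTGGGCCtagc
RPL10A (chr1:4887864-4888113, plus strand): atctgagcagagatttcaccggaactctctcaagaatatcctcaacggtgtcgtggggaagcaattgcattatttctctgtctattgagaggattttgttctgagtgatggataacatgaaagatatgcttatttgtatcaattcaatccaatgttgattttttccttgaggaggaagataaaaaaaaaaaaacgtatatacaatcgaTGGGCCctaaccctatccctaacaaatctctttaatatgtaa
RPL10B (chr1:9321400-9321649, plus strand): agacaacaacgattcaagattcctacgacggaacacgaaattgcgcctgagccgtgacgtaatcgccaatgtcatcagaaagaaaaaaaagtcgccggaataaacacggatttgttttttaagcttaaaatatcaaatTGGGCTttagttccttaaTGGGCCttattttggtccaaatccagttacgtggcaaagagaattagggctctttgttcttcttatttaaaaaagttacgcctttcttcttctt
RPSAA (chr1:27244932-27245181, minus strand): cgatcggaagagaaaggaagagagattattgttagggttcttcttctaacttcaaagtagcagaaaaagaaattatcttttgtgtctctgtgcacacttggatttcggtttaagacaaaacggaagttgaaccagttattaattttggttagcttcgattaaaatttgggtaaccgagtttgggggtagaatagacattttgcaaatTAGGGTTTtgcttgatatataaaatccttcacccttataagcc
AT3G59540 (chr3:21996841-21997090, minus strand): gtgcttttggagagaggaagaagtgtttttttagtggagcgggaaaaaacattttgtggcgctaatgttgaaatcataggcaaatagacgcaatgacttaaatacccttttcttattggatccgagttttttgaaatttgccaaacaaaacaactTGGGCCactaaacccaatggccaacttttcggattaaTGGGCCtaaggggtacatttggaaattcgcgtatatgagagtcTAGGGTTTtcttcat
AT5G47930 (chr5:19407450-19407699, minus strand): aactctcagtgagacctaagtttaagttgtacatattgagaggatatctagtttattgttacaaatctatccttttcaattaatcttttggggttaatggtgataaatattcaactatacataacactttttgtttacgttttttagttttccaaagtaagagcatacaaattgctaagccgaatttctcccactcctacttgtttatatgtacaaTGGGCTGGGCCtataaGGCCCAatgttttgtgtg
The site II element occurred in 5 of the 6, RPSAA being without it, and the telo box in RPSAA and AT3G59540. AT5G47930 held 3 site II matches, a pair of which overlap by 1 letter. RPL10B alone of the 6 held ACGTG, not marked in capitals. RPL10C also had a telo box within the 50 bases after its start, which are not shown. In windows of 250 bases before and 50 bases after the start, 47 of the 60 listed loci (78.3%) held a site II element, against 21.7% of 27443 protein-coding genes, and 29 (48.3%) held a telo box, against 6.22% of those genes. ACGTG occurred in 9 of the 60 (15%), against 26.7% of protein-coding genes. Among the 54 genes tested, the median log2 fold change for ABA over mock, described below, was -0.67 for the 25 with a telo box and -0.55 for the 29 without, and -0.66 for the 42 with a site II element and -0.48 for the 12 without. It was -0.63 for the 8 with ACGTG and -0.59 for the 46 without. For each motif, genes that held it lay more often on the minus strand than genes without it, and values were lower on that strand, as given below. The part of strand in these medians was not tested. These matches describe letters in a window, and no test was made on them.

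Total counts ranged from 1565518 to 15086279 per library, with a median of 7142427. By their lengths, 99.3% of the deposited gene models with 1 transcript lack the exon of lowest coordinate, and models with more transcripts were not checked. For a minus-strand gene this is its 3′ exon, the one this assay mostly reads. Only 13.6% to 17.6% of counts in ABA libraries and 12.6% to 17.2% in mock libraries fell on minus-strand genes, to which 27 of the 54 genes belong. The part of the missing exon in this share was not tested, and levels of genes on opposite strands are not compared here. HTA9, another H2A.Z gene, stood at 53.7 to 109 CPM in the mutant libraries and 301 to 436 CPM in WT libraries. HTA8, the remaining one, had no count in any library. HTA11 stood at 2.52 to 9.51 CPM in Delta28 libraries and 393 to 914 CPM in K>R 1-9 libraries, against 4.7 to 10.3 CPM in WT libraries. In K>R 3 it stood at 870 CPM in the library labelled K>R 3 mock replicate 2, against 5.87 to 38.4 CPM in the other K>R 3 libraries, a level within the range of the K>R 1-9 libraries. Its label is therefore in doubt; it was kept under that label, and values of K>R 3 mock leaves below include it. Without it the number of ribosomal protein genes called was again 50 in the ABA response over all genotypes and 20 in that of K>R 3, as with it, and 0 in K>R 3 against WT in mock leaves. The median log2 value of these genes without it was -0.93 in the ABA response of K>R 3 (-0.82 with it) and 0.35 in K>R 3 against WT in mock leaves (0.28 with it).

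ABA lowered nearly the whole group. Summed over the 54 genes, the level was 9959, 18592 and 15536 CPM in Delta28 ABA leaves, against 19068, 23057 and 17547 CPM in Delta28 mock leaves, values being given throughout in the order of replicates 1 to 3. It was 11710, 11183 and 10131 CPM in K>R 1-9 ABA leaves, against 14733, 13050 and 15221 CPM in K>R 1-9 mock leaves. In K>R 3 the sum was 15499, 14307 and 7098 CPM in ABA leaves, against 20041, 20225 and 21295 CPM in mock leaves, and in WT 12160, 10841 and 13958 CPM in ABA leaves, against 12558, 15843 and 19408 CPM in mock leaves. The groups did not overlap in K>R 1-9 and K>R 3, whereas in Delta28 the ABA library of replicate 2 stood above 1 mock library and in WT that of replicate 3 did. The lowest sum was that of K>R 3 ABA replicate 3, and the lowest Delta28 sum that of ABA replicate 1. The mean sum in ABA leaves was 0.739 times that in mock leaves in Delta28, 0.768 times in K>R 1-9, 0.599 times in K>R 3 and 0.773 times in WT. Minus-strand genes add little to the sum, which mostly describes plus-strand genes. Averaged over the genotypes on the log2 scale, the ratio was 0.716, and 0.736 with plus-strand genes alone. No test is given for this sum. In whole leaves, fewer cells of a type and less RNA of these genes per cell cannot be told apart.

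**Figure D1:**
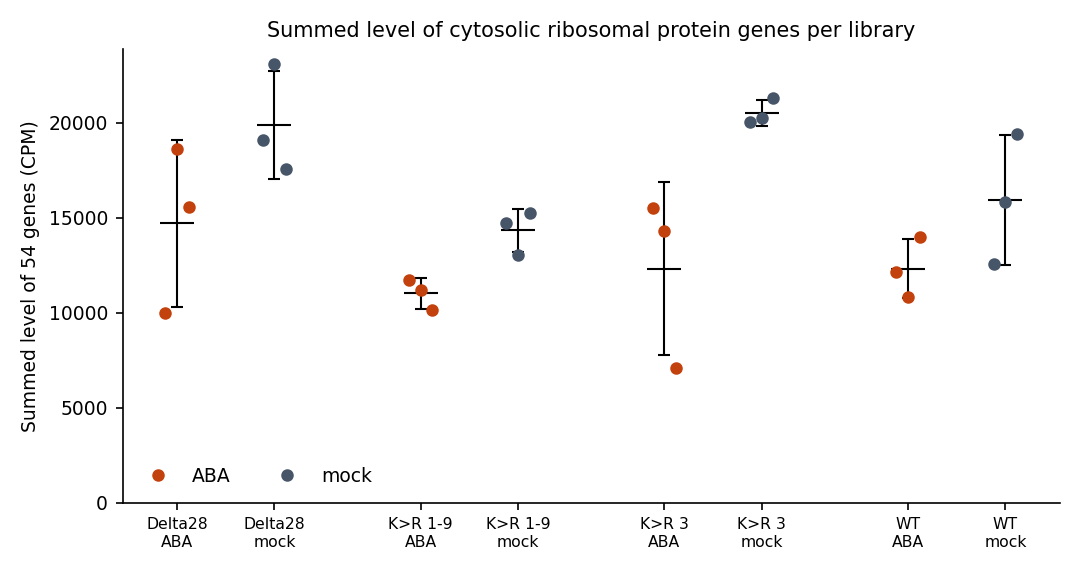
Summed level of the 54 cytosolic ribosomal protein genes (CPM, vertical axis) in each library, by genotype and treatment (horizontal axis); points are libraries, horizontal marks the mean of 3 and bars the SD. ABA libraries lie between 7098 and 18592 CPM and mock libraries between 12558 and 23057 CPM.

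Gene by gene, 49 of the 54 (90.7%) were called lower in ABA leaves and 1 was called higher, in the mean response of the 4 genotypes with equal weight. Genes were called by the quasi-likelihood test of edgeR at an adjusted p under 0.05, the adjustment (Benjamini-Hochberg) being over all 13874 genes. Over all genes tested 21.4% were called lower and 22% higher. The median log2 fold change of the 54 was -0.59, against -0.03 over all genes. RPL10C was the member called higher. RPS18C, RPL10B, AT3G53870 (S3) and AT4G36130 (L8) were not called, at log2 fold changes of -0.12, -0.21, -0.27 and -0.34. By subunit, 21 of 23 genes of the 40S (median -0.71) and 28 of 31 of the 60S (median -0.53) were called lower. A larger share of the 40S than of the 60S genes lies on the minus strand, where values were lower. The part of strand in the difference between subunits was not tested.

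Values differed by strand as well. All 27 minus-strand genes were called lower, with a median of -0.78, where 1193 of 5864 minus-strand genes in general were called lower, with a median of -0.11. Of the 27 plus-strand genes, 22 were called lower and RPL10C higher, with a median of -0.42, while of all 8005 plus-strand genes 1781 were called lower and 2096 higher, with a median of 0.02. All of the 8 largest falls were of minus-strand genes, whose 3′ exon is missing from nearly all deposited models that could be checked. In 7 families with tested paralogues on both strands, every minus-strand member had a lower value than every plus-strand member in 5. Whether part of the larger fall of minus-strand genes comes from the missing exon was not tested.

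**Figure D2:**
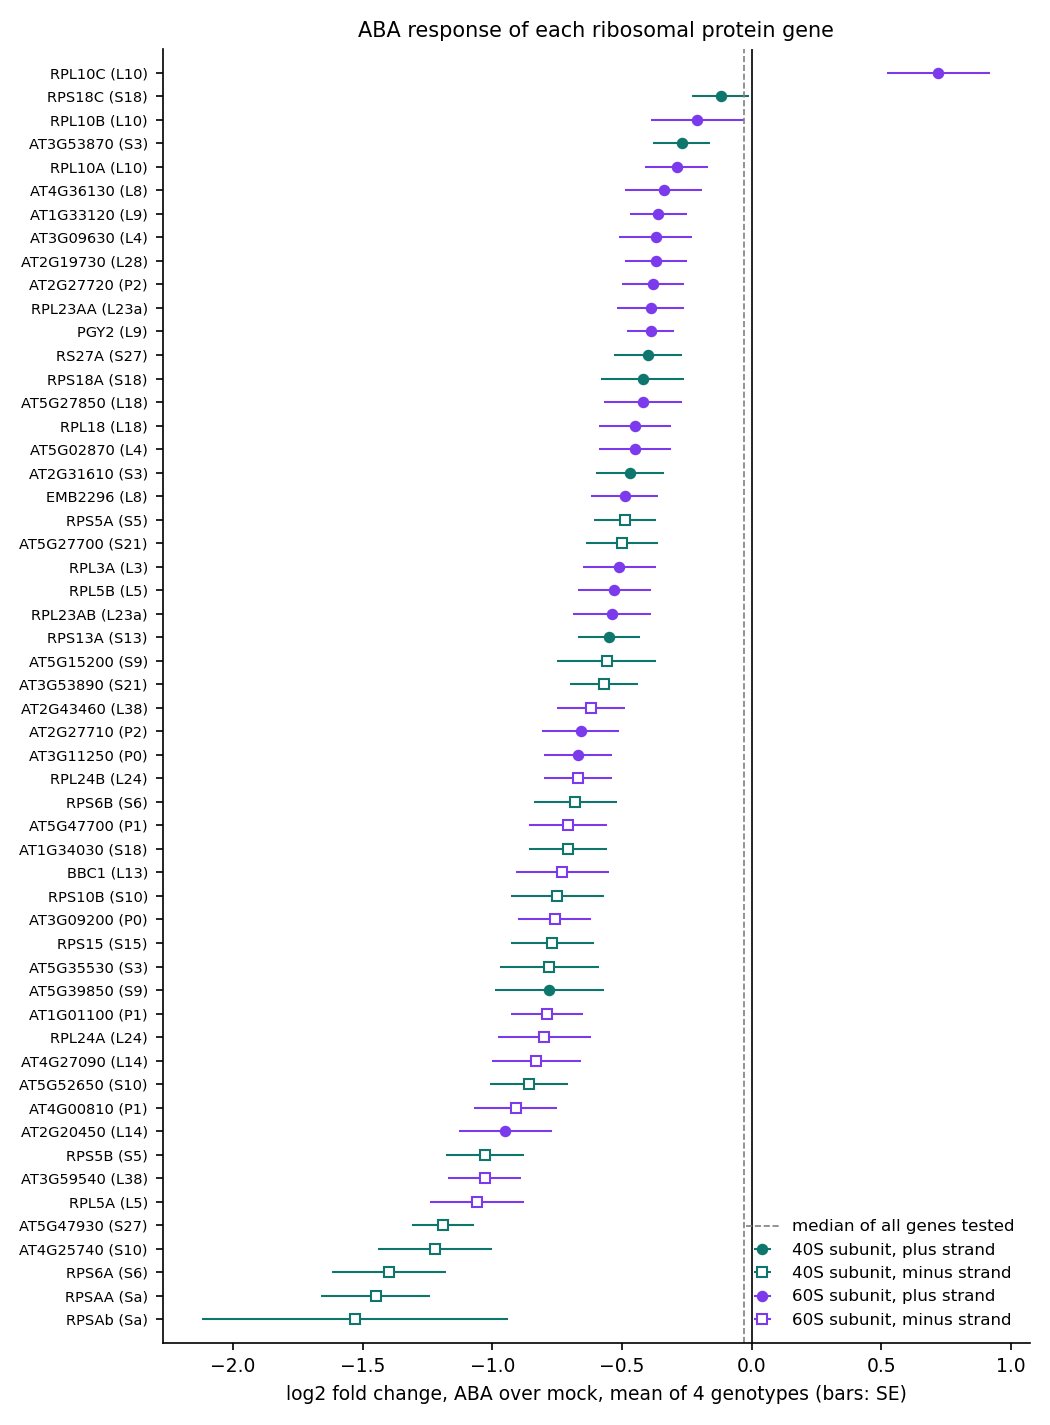
The log2 fold change of ABA over mock, averaged over 4 genotypes (horizontal axis, bars are the SE), for each of the 54 genes with its family in brackets (vertical axis); colour marks the subunit and filled or open symbols the plus or minus strand. RPL10C lies at 0.72 and the other 53 genes between -1.53 and -0.12.

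**Figure D3:**
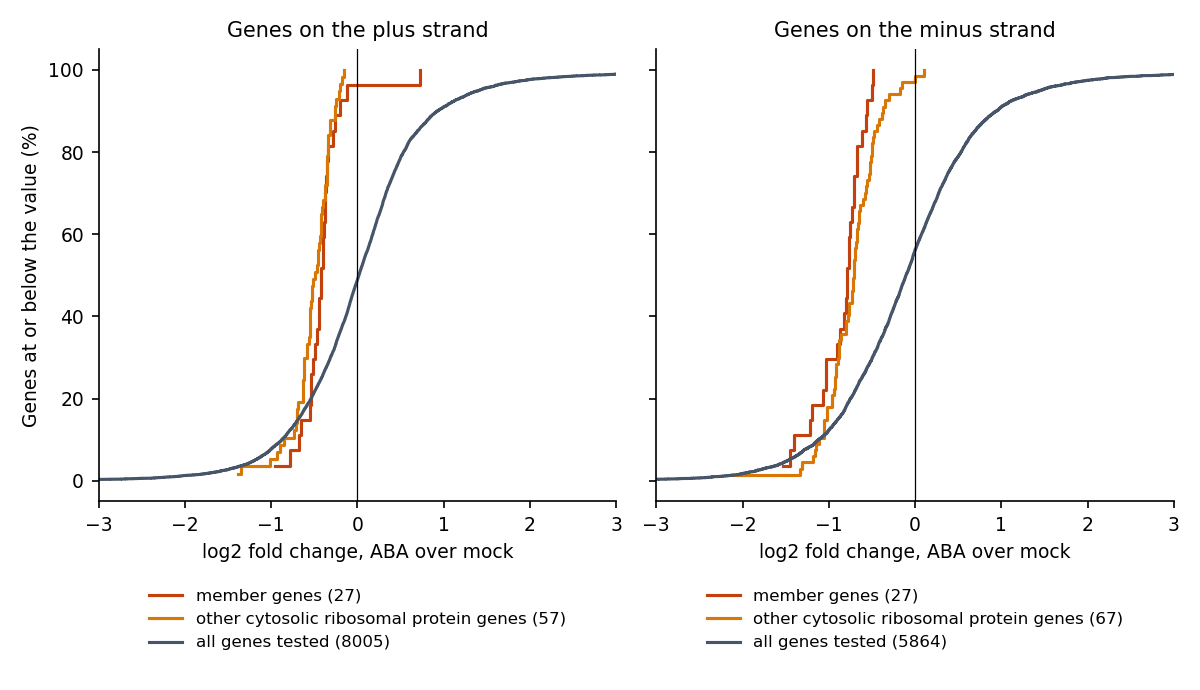
Share of genes (%, vertical axis) with a log2 fold change of ABA over mock at or below the value on the horizontal axis, for the 54 genes, other cytosolic ribosomal protein genes and all genes tested, separately for each strand. The curves of both ribosomal groups lie left of 0 on both strands, apart from RPL10C at 0.72 and few genes of the other ribosomal list, the highest of which is at 0.10; values beyond 3 in size are not drawn.

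Among proteins of the small subunit, the family Sa, whose yeast counterpart is needed to mature the 40S subunit, fell most in size. RPSAA stood at 37, 78.2 and 74.8 CPM in Delta28 ABA leaves, against 91.7, 198 and 156 CPM in Delta28 mock leaves, and at 50.6, 32.5 and 58.1 CPM in K>R 1-9 ABA leaves, against 126, 132 and 60.9 CPM in K>R 1-9 mock leaves. RPSAA had 61.5, 75.2 and 48.4 CPM in K>R 3 ABA leaves, against 202, 119 and 188 CPM in K>R 3 mock leaves, and 36.3, 38.8 and 54.8 CPM in WT ABA leaves, against 89.5, 367 and 152 CPM in WT mock leaves. In each genotype every ABA library lay below every mock library, and WT mock replicate 2, at 367 CPM, stood above all others. The log2 fold change of RPSAA over all genotypes was -1.45 (SE 0.21, edgeR adjusted p = 1.25e-05). Its paralogue was close to the limit of detection. RPSAb stood at 0.152, 1.17 and 0.629 CPM in Delta28 ABA leaves, against 1.46, 3.34 and 1.8 CPM in Delta28 mock leaves, and at 0.98, 0.29 and 1.19 CPM in K>R 1-9 ABA leaves, against 2.58, 0 and 1.03 CPM in K>R 1-9 mock leaves. RPSAb had 0, 1.57 and 0 CPM in K>R 3 ABA leaves, against 4.42, 2.16 and 1.53 CPM in K>R 3 mock leaves, and 0, 0.96 and 0.663 CPM in WT ABA leaves, against 0.405, 3.19 and 2.06 CPM in WT mock leaves. A count of 3 corresponds to 0.199 to 1.92 CPM in these libraries, so that most of these values are near the floor of the assay. RPSAb was called at -1.53 (SE 0.59, edgeR adjusted p = 0.0422), but in 13 of 24 fits that each left out 1 library it was not.

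S27, a zinc-binding protein of the 40S subunit, is encoded here by a gene that fell with the smallest p of the group and by a paralogue that fell less. AT5G47930 stood at 15.4, 19.1 and 21.1 CPM in Delta28 ABA leaves, against 47.1, 44.7 and 52 CPM in Delta28 mock leaves, and at 17.7, 11.2 and 16.6 CPM in K>R 1-9 ABA leaves, against 29.2, 25.6 and 21 CPM in K>R 1-9 mock leaves. AT5G47930 had 18.4, 13.3 and 13.3 CPM in K>R 3 ABA leaves, against 51.6, 42.8 and 54 CPM in K>R 3 mock leaves, and 17.8, 12.6 and 17 CPM in WT ABA leaves, against 30, 44.1 and 35.1 CPM in WT mock leaves. ABA and mock libraries did not overlap within any genotype, and 11 of 12 ABA libraries lay below every mock library. AT5G47930 changed by -1.19 on the log2 scale (SE 0.12, edgeR adjusted p = 1.18e-07). RS27A stood at 155, 272 and 252 CPM in Delta28 ABA leaves, against 344, 372 and 328 CPM in Delta28 mock leaves, and at 175, 165 and 160 CPM in K>R 1-9 ABA leaves, against 194, 199 and 186 CPM in K>R 1-9 mock leaves. RS27A had 228, 270 and 118 CPM in K>R 3 ABA leaves, against 309, 320 and 275 CPM in K>R 3 mock leaves, and 200, 187 and 246 CPM in WT ABA leaves, against 261, 220 and 390 CPM in WT mock leaves. These groups overlapped in WT alone, where ABA replicate 3 stood above mock replicate 2. RS27A changed by -0.40 (SE 0.13, edgeR adjusted p = 0.0147). The paralogues lie on opposite strands, AT5G47930 on the minus strand, and the difference between them was not tested.

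S5 proteins sit in the head of the 40S subunit near the exit site for tRNA, and RPS5A is known in Arabidopsis for its strong activity in dividing cells. RPS5B stood at 46.7, 89.4 and 83.3 CPM in Delta28 ABA leaves, against 149, 185 and 150 CPM in Delta28 mock leaves, and at 51.6, 55.3 and 57.9 CPM in K>R 1-9 ABA leaves, against 114, 86.8 and 87.3 CPM in K>R 1-9 mock leaves. RPS5B had 78.5, 76.5 and 28.2 CPM in K>R 3 ABA leaves, against 192, 125 and 170 CPM in K>R 3 mock leaves, and 51.7, 49.2 and 81.3 CPM in WT ABA leaves, against 102, 126 and 139 CPM in WT mock leaves. Within each genotype the ABA libraries lay below the mock libraries, and 11 of all 12 ABA libraries were below every mock library. RPS5A stood at 117, 211 and 185 CPM in Delta28 ABA leaves, against 257, 274 and 231 CPM in Delta28 mock leaves, and at 127, 151 and 111 CPM in K>R 1-9 ABA leaves, against 161, 172 and 132 CPM in K>R 1-9 mock leaves. RPS5A had 161, 171 and 93 CPM in K>R 3 ABA leaves, against 288, 227 and 217 CPM in K>R 3 mock leaves, and 115, 132 and 173 CPM in WT ABA leaves, against 171, 205 and 245 CPM in WT mock leaves. RPS5A separated the treatments fully in Delta28 and K>R 3, and overlapped in K>R 1-9 and WT. The log2 fold change was -1.03 for RPS5B (SE 0.15, edgeR adjusted p = 1.39e-05) and -0.49 for RPS5A (SE 0.12, edgeR adjusted p = 0.00247). Both are on the minus strand, and of the reads counted on the pair RPS5B took 23.3% to 34.2% in ABA libraries, against 33.5% to 43.9% in mock libraries. Nearly all deposited models that could be checked lack the 3′ exon on that strand, so that shares of counted reads need not be shares of transcripts.

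S6 is the ribosomal protein that S6 kinase phosphorylates downstream of the TOR kinase. RPS6A stood at 3.5, 19.9 and 11 CPM in Delta28 ABA leaves, against 29.1, 40.8 and 26 CPM in Delta28 mock leaves, and at 4.81, 3.67 and 9.11 CPM in K>R 1-9 ABA leaves, against 14.2, 10.7 and 13.1 CPM in K>R 1-9 mock leaves. RPS6A had 10.7, 7.63 and 5.99 CPM in K>R 3 ABA leaves, against 31.3, 22.5 and 25.7 CPM in K>R 3 mock leaves, and 5.01, 5.38 and 9.15 CPM in WT ABA leaves, against 14, 24.9 and 19.4 CPM in WT mock leaves. The treatments did not overlap in any genotype, with Delta28 ABA replicate 2 the highest of the ABA libraries. RPS6B stood at 8.07, 20.7 and 12.3 CPM in Delta28 ABA leaves, against 27.1, 31.6 and 29.2 CPM in Delta28 mock leaves, and at 13.1, 12 and 10.9 CPM in K>R 1-9 ABA leaves, against 20.8, 14.5 and 13 CPM in K>R 1-9 mock leaves. RPS6B had 14, 13.9 and 7.7 CPM in K>R 3 ABA leaves, against 26.2, 15.7 and 31 CPM in K>R 3 mock leaves, and 12.2, 19.7 and 12.1 CPM in WT ABA leaves, against 17, 22.4 and 18.2 CPM in WT mock leaves. RPS6B overlapped in K>R 1-9 and WT. RPS6A changed by -1.40 (SE 0.22, edgeR adjusted p = 3.48e-05) and RPS6B by -0.68 (SE 0.16, edgeR adjusted p = 0.00201), both from the minus strand. RPS6A took 21.5% to 49% of the reads of the pair in ABA libraries and 40.6% to 58.9% in mock libraries, with the limit given for the S5 pair.

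All 3 genes of S10, another protein of the 40S head, were called lower. AT4G25740 ranged from 4.34 to 23.1 CPM in ABA libraries (median 11.4), against 10.2 to 40.3 CPM in mock libraries (median 27.7). It changed by -1.22 (SE 0.22, edgeR adjusted p = 0.000122). AT5G52650 ranged from 23.2 to 70.4 CPM in ABA libraries (median 42.3) and from 42.5 to 137 CPM in mock libraries (median 92.5), without overlap in any single genotype, and changed by -0.86 (SE 0.15, edgeR adjusted p = 0.00013). RPS10B changed by -0.75 (SE 0.18, edgeR adjusted p = 0.0021).

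The other small-subunit genes had log2 fold changes between -0.78 and -0.12. RPS15 changed by -0.77 (SE 0.16) and RPS13A by -0.55 (SE 0.12), both called, the second at 205 to 460 CPM in ABA libraries (median 362), against 372 to 726 CPM in mock libraries (median 564). S21 genes AT3G53890 and AT5G27700 changed by -0.57 and -0.50, and S9 genes AT5G39850 and AT5G15200 by -0.78 and -0.56, all called. In S3, whose mammalian counterpart lies at the mRNA entry channel, AT5G35530 (-0.78) and AT2G31610 (-0.47) were called and AT3G53870 was not (-0.27, edgeR adjusted p = 0.0601). In S18, AT1G34030 (-0.71) and RPS18A (-0.42) were called, RPS18A being lost in 4 of 24 fits that each left out a library. RPS18C, at 192 to 420 CPM in ABA libraries (median 283) and 234 to 424 CPM in mock libraries (median 337), was not called (-0.12, SE 0.11, edgeR adjusted p = 0.405).

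In the large subunit, L5 binds the 5S ribosomal RNA. RPL5A stood at 10.9, 28.6 and 27.4 CPM in Delta28 ABA leaves, against 55.1, 51.5 and 41.2 CPM in Delta28 mock leaves, and at 13.3, 12.7 and 8.52 CPM in K>R 1-9 ABA leaves, against 32.5, 23.9 and 15.6 CPM in K>R 1-9 mock leaves. RPL5A had 16, 24.7 and 10.1 CPM in K>R 3 ABA leaves, against 40.9, 33 and 46 CPM in K>R 3 mock leaves, and 14.7, 17.6 and 24.7 CPM in WT ABA leaves, against 31, 53 and 34.2 CPM in WT mock leaves. Within every genotype the ABA libraries were below the mock libraries. RPL5B stood at 215, 423 and 394 CPM in Delta28 ABA leaves, against 468, 591 and 436 CPM in Delta28 mock leaves, and at 257, 235 and 224 CPM in K>R 1-9 ABA leaves, against 356, 307 and 372 CPM in K>R 1-9 mock leaves. RPL5B had 387, 349 and 147 CPM in K>R 3 ABA leaves, against 505, 557 and 583 CPM in K>R 3 mock leaves, and 283, 232 and 330 CPM in WT ABA leaves, against 274, 390 and 472 CPM in WT mock leaves. RPL5B separated the treatments in the mutant lines and overlapped in WT. RPL5A changed by -1.06 (SE 0.18, edgeR adjusted p = 6.55e-05) and RPL5B by -0.53 (SE 0.14, edgeR adjusted p = 0.00405), and RPL5A is the minus-strand gene of the pair.

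L38 is a small protein at the surface of the 60S subunit. AT3G59540 stood at 42.9, 65.3 and 83.3 CPM in Delta28 ABA leaves, against 129, 157 and 118 CPM in Delta28 mock leaves, and at 48.2, 48.4 and 37.3 CPM in K>R 1-9 ABA leaves, against 94.5, 74.1 and 69.1 CPM in K>R 1-9 mock leaves. AT3G59540 had 69.5, 69.3 and 26.4 CPM in K>R 3 ABA leaves, against 147, 116 and 130 CPM in K>R 3 mock leaves, and 67.9, 49.4 and 66.2 CPM in WT ABA leaves, against 105, 153 and 165 CPM in WT mock leaves. No genotype showed overlap, and 9 of 12 ABA libraries lay below every mock library. AT2G43460 stood at 123, 169 and 188 CPM in Delta28 ABA leaves, against 279, 259 and 176 CPM in Delta28 mock leaves, and at 129, 113 and 118 CPM in K>R 1-9 ABA leaves, against 184, 157 and 92.3 CPM in K>R 1-9 mock leaves. AT2G43460 had 222, 187 and 110 CPM in K>R 3 ABA leaves, against 380, 382 and 386 CPM in K>R 3 mock leaves, and 119, 114 and 158 CPM in WT ABA leaves, against 201, 225 and 218 CPM in WT mock leaves. The treatments overlapped for AT2G43460 in Delta28 and K>R 1-9. AT3G59540 changed by -1.03 (SE 0.14, edgeR adjusted p = 7.37e-06) and AT2G43460 by -0.62 (SE 0.13, edgeR adjusted p = 0.000736). Both are minus-strand genes, and the share of their reads on AT3G59540 averaged 27.7% ± 4.26 in ABA libraries and 34.4% ± 6.68 in mock libraries (SD, n = 12 each). The limit given for the shares of the S5 pair holds for these genes too.

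Of the plus-strand genes the L14 gene AT2G20450 fell furthest, with 34.9 to 119 CPM in ABA libraries (median 69.5), against 69.9 to 234 CPM in mock libraries (median 152). It changed by -0.95 (SE 0.18, edgeR adjusted p = 0.000179), and its minus-strand paralogue AT4G27090 by -0.83. PGY2, an L9 gene known in Arabidopsis from leaf-shape mutants, changed by only -0.39 but with the smallest SE of the group (0.09, edgeR adjusted p = 0.00199). It stood at 406 to 674 CPM in ABA libraries (median 566) and 664 to 933 CPM in mock libraries (median 728), and 11 of 12 ABA libraries lay below every mock library. The L8 gene EMB2296 had 446 to 1155 CPM in ABA libraries (median 812), against 978 to 1576 CPM in mock libraries (median 1224), and changed by -0.49. RPL3A, a protein near the peptidyl transferase centre, changed by -0.51, and the L4 genes AT5G02870 and AT3G09630, whose protein lines the exit tunnel, by -0.45 and -0.37. AT3G09630 was not called in 7 of 24 fits without 1 library each. In L24, RPL24A and RPL24B, the second known as STV1 for its part in reinitiation after upstream reading frames, changed by -0.80 and -0.67. L23a, L18, L13 and L28 genes were called too, at -0.54 (RPL23AB), -0.39 (RPL23AA), -0.45 (RPL18), -0.42 (AT5G27850), -0.73 (BBC1) and -0.37 (AT2G19730).

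The stalk, which P0 anchors and on which pairs of P1 and P2 recruit elongation factors, fell throughout. All 7 tested stalk genes were called lower, with a median of -0.71. The P0 genes AT3G09200 and AT3G11250 changed by -0.76 and -0.67. AT3G09200 had 19.5 to 60.4 CPM in ABA libraries (median 36.9), against 43.1 to 89.1 CPM in mock libraries (median 64.3), and did not overlap within any genotype. The P1 genes AT4G00810, AT1G01100 and AT5G47700 changed by -0.91, -0.79 and -0.71. AT4G00810 ranged from 19.4 to 45 CPM in ABA libraries (median 30.1) and from 26.3 to 86.9 CPM in mock libraries (median 59.5), again without overlap within a genotype. Both P2 genes are on the plus strand, and AT2G27710 changed by -0.66 (SE 0.15, edgeR adjusted p = 0.00119) and AT2G27720 by -0.38 (SE 0.12, edgeR adjusted p = 0.0117). Of the reads on the P2 pair, AT2G27720 took 54.4% to 67.3% in ABA libraries, against 45.1% to 59.9% in mock libraries. For each of these P2 genes the counts were not whole numbers in 11 libraries, so that some reads were divided between loci. Which loci shared them was not examined, and the split of the pair is uncertain.

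The L10 family departed from this pattern. L10 joins the 60S subunit late, near the site of peptide bond formation, and RPL10C is listed in the annotation also as SAG24, a senescence-associated gene. RPL10C stood at 722, 1964 and 691 CPM in Delta28 ABA leaves, against 553, 705 and 518 CPM in Delta28 mock leaves, and at 918, 605 and 502 CPM in K>R 1-9 ABA leaves, against 372, 280 and 510 CPM in K>R 1-9 mock leaves. RPL10C had 1124, 1032 and 322 CPM in K>R 3 ABA leaves, against 630, 909 and 846 CPM in K>R 3 mock leaves, and 715, 788 and 634 CPM in WT ABA leaves, against 310, 351 and 546 CPM in WT mock leaves. On these CPM of library totals, RPL10C separated the treatments in WT alone, where ABA leaves were higher. On CPM scaled by effective library size, every ABA library of RPL10C lay above every mock library in Delta28, K>R 1-9 and WT, but not in K>R 3. Delta28 ABA replicate 2, at 1964 CPM, was the highest library and K>R 3 ABA replicate 3, at 322 CPM, the lowest of the ABA libraries. RPL10C changed by 0.72 on the log2 scale (SE 0.20, edgeR adjusted p = 0.00597). It was called higher in all 24 fits that each left out 1 library, with values from 0.53 to 0.80. It was shown per library because it was the only member called higher, a choice made after its values were seen.

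RPL10A stood at 570, 953 and 808 CPM in Delta28 ABA leaves, against 1026, 1074 and 891 CPM in Delta28 mock leaves, and at 719, 608 and 608 CPM in K>R 1-9 ABA leaves, against 760, 700 and 946 CPM in K>R 1-9 mock leaves. RPL10A had 910, 767 and 437 CPM in K>R 3 ABA leaves, against 981, 1040 and 1009 CPM in K>R 3 mock leaves, and 726, 635 and 769 CPM in WT ABA leaves, against 716, 830 and 938 CPM in WT mock leaves. The treatments overlapped for RPL10A in all genotypes except K>R 3. RPL10A changed by -0.29 (SE 0.12, edgeR adjusted p = 0.0477), a call lost in 11 of 24 fits without 1 library each. RPL10B stood at 23, 59 and 42.1 CPM in Delta28 ABA leaves, against 45, 66.1 and 35.6 CPM in Delta28 mock leaves, and at 22, 15.5 and 19.2 CPM in K>R 1-9 ABA leaves, against 20.4, 10.1 and 15.1 CPM in K>R 1-9 mock leaves. RPL10B had 40, 33.1 and 16 CPM in K>R 3 ABA leaves, against 49.6, 51.8 and 55 CPM in K>R 3 mock leaves, and 33.2, 22.7 and 26.4 CPM in WT ABA leaves, against 24.9, 28.1 and 48.5 CPM in WT mock leaves. RPL10B was in K>R 1-9 at the low end in both treatments, and overlapped in all genotypes except K>R 3. It was not called (-0.21, SE 0.18, edgeR adjusted p = 0.365). All 3 genes lie on the plus strand, where the exon of lowest coordinate is not the one at the 3′ end. Of the reads counted on the family, RPL10C took 51.2% ± 6.96 in ABA libraries and 35.4% ± 5.5 in mock libraries, and RPL10A 47% ± 6.86 in ABA libraries and 62.2% ± 5.94 in mock libraries (SD, n = 12 each). By genotype, the share of RPL10C averaged 55.2% in ABA and 36% in mock leaves of Delta28, 49.7% in ABA and 31.7% in mock leaves of K>R 1-9, 50.7% in ABA and 42.5% in mock leaves of K>R 3, and 49.1% in ABA and 31.4% in mock leaves of WT. The counts of RPL10A and of RPL10C were not whole in 1 library each. Across the 15 families whose tested members share a strand, the range between paralogues' log2 fold changes was 0.03 to 1.01 with a median of 0.15, and L10 had the widest.

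**Figure D4:**
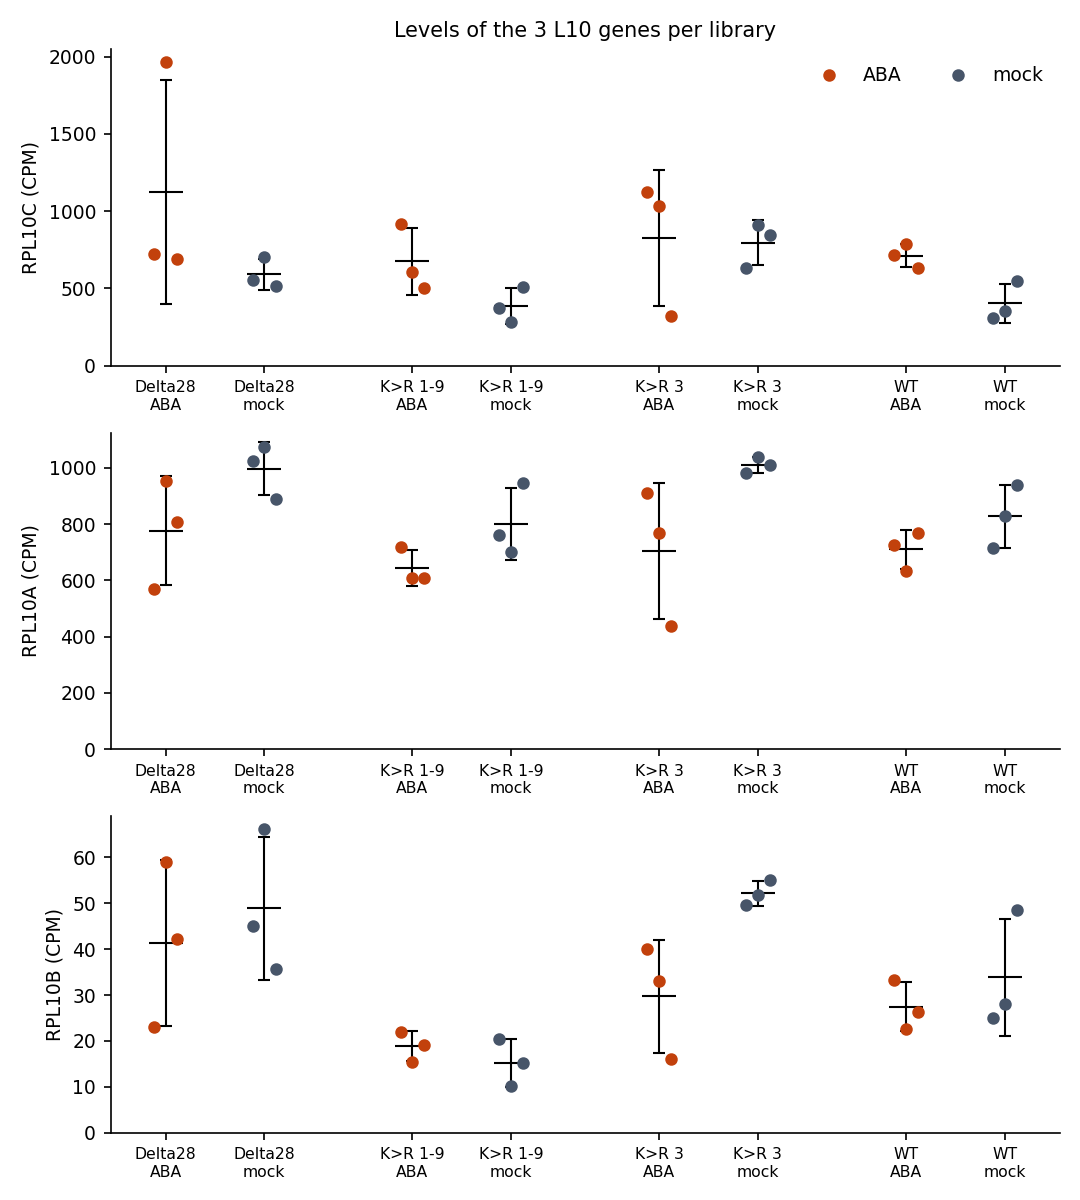
Levels of RPL10C, RPL10A and RPL10B (CPM, vertical axes from 0) in each library, by genotype and treatment (horizontal axis); points are libraries, horizontal marks the mean of 3 and bars the SD. RPL10C is higher in ABA than in mock leaves in WT (634 to 788 against 310 to 546 CPM), while RPL10A is lower in K>R 3 ABA leaves (437 to 910 CPM) than in K>R 3 mock leaves (981 to 1040 CPM).

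Within single genotypes the same direction was seen, with fewer calls. The median log2 fold change for ABA over mock was -0.62 in Delta28, -0.45 in K>R 1-9, -0.82 in K>R 3 and -0.51 in WT. In all 4 genotypes 51 of the 54 genes had values below 0, against 28.3% of all genes; these responses come from separate libraries in each genotype. Every ABA library lay below every mock library, on CPM scaled by effective library size, for 31 of the 54 genes in Delta28 (16.4% of all genes), 23 in K>R 1-9 (14.1%), 45 in K>R 3 (14.8%) and 25 in WT (13%).

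In Delta28, 9 of the 54 were called lower (5.56% of all genes), the largest falls being of AT4G25740 (-1.57, SE 0.43, edgeR adjusted p = 0.019), RPS6A (-1.40), AT5G47930 (-1.31), RPL5A (-1.09) and RPS5B (-1.07). The count was 1 without Delta28 ABA replicate 1, the Delta28 library with the lowest summed level, 1 without Delta28 mock replicate 1, 2 without Delta28 mock replicate 2 and 14 without K>R 3 ABA replicate 3, and AT5G47930 was called in each of the 6 fits without a Delta28 library, AT4G25740 in 4, RPS5B in 3, and RPS6A and RPL5A in 2 each. In K>R 1-9, AT4G00810 was called lower (-1.25, SE 0.32, edgeR adjusted p = 0.0164), 1 of 54 where 3.58% of all genes were called lower, and it was not called in 4 of 6 fits without 1 K>R 1-9 library each. That count was 0 without K>R 1-9 mock replicate 1 or 2 or ABA replicate 1 or 2, 4 without K>R 1-9 mock replicate 3, and 2 without WT mock replicate 2, Delta28 ABA replicate 1 or K>R 3 ABA replicate 2 or 3. In K>R 3, 20 were called lower (4.7% of all genes), led in size by RPS6A (-1.66), AT5G47930 (-1.65, SE 0.24, edgeR adjusted p = 0.00052), RPSAA (-1.39), RPS5B (-1.36) and AT2G20450 (-1.32). That count was 3 without K>R 3 ABA replicate 3, whose summed level was the lowest of all libraries, 3 without K>R 3 mock replicate 1 and 6 without K>R 3 mock replicate 3. In the 6 fits that each left out a K>R 3 library, AT5G47930 and RPS5B were called in all 6, RPS6A in 3, AT2G20450 in 2 and RPSAA in 1. In WT, RPSAA (-2.14, SE 0.43, edgeR adjusted p = 0.00533), AT3G59540 (-1.16) and AT5G47930 (-1.15) were called lower, 3 of 54 where 1.63% of all genes were. The WT count was 1 without WT mock replicate 2 or WT ABA replicate 2, and 5 without WT ABA replicate 3, Delta28 ABA replicate 1 or 2 or K>R 3 ABA replicate 3. RPSAA was not called without WT mock replicate 2, its highest library (edgeR adjusted p = 0.0541), and AT5G47930 not without WT ABA replicate 2. AT3G59540 was not called in 3 of the 6 fits without a WT library, those without WT mock replicate 2 or 3 or WT ABA replicate 2. WT mock replicate 2 had the fewest counts of all libraries, 1565518. Its share of counts on minus-strand genes, 17.2%, was the highest of the mock libraries. The 3 genes called in WT all lie on that strand, and the part of depth and strand in these calls was not tested. RPL10C was called in no single genotype, at 1.02 in Delta28, 0.88 in K>R 1-9, 0.12 in K>R 3 and 0.86 in WT (SE 0.40 each).

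**Figure D5:**
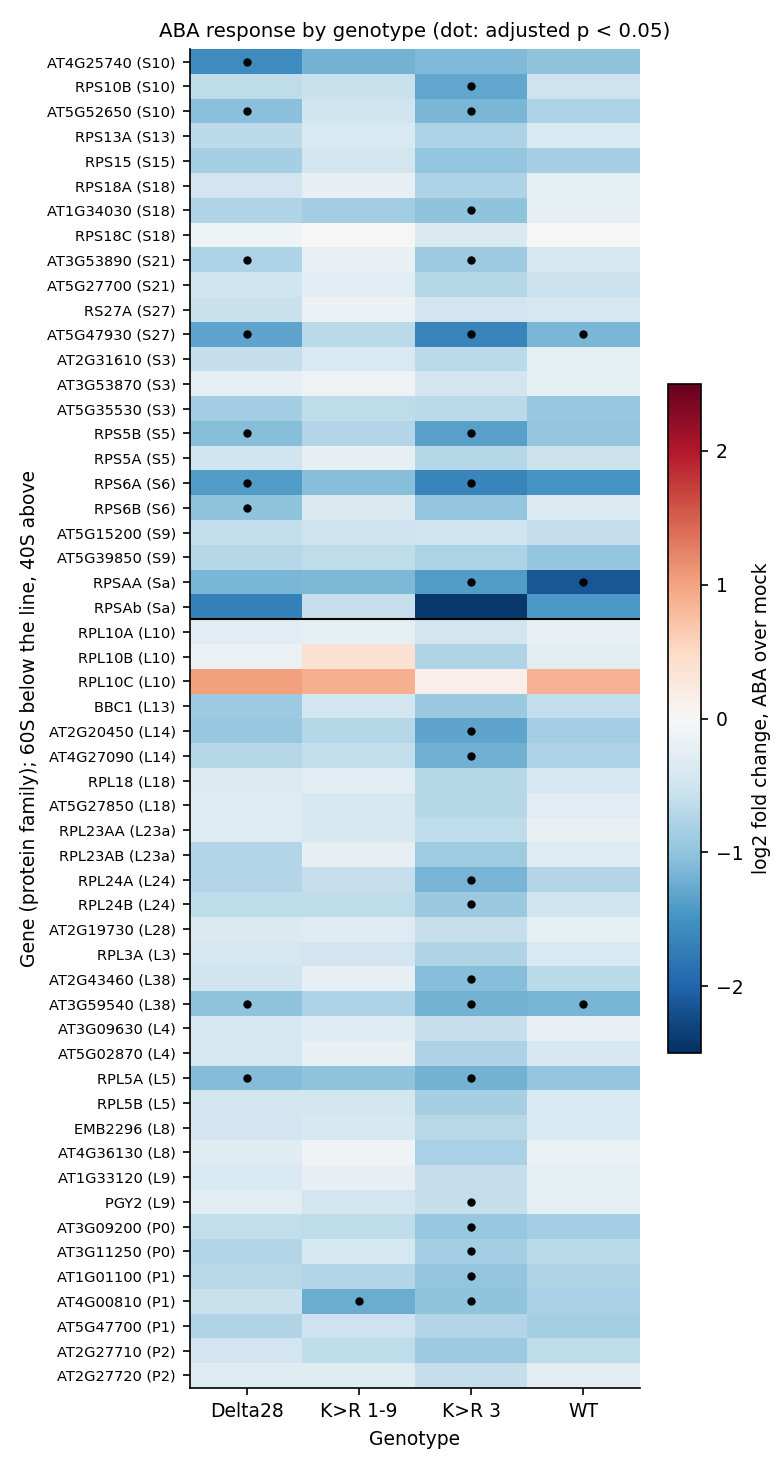
The log2 fold change of ABA over mock in each genotype (columns, colour scale) for the 54 genes (rows, with family in brackets; 40S above and 60S below the line), with a dot where edgeR gave an adjusted p under 0.05. The 33 dots stand at 9 genes in Delta28, 1 in K>R 1-9, 20 in K>R 3 and 3 in WT, all of them lower in ABA leaves.

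Whether the altered H2A.Z tail changes the ABA response is the question of the study. For these genes the response of each mutant was tested against that of WT, which cannot tell the altered tail from the null background. None of the 54 was called by edgeR in any of the 3 comparisons, where 0% of all genes were called, and DESeq2 called none. None had an unadjusted p under 0.05 either, as 3.21% of all genes had for Delta28, 3.29% for K>R 1-9 and 3.69% for K>R 3. The median difference of the response was -0.07 for Delta28, 0.09 for K>R 1-9 and -0.36 for K>R 3, against -0.03, -0.04 and -0.04 over all genes. Of the 54 values, 36 were below 0 for Delta28, 20 for K>R 1-9 and 49 for K>R 3. Over all 13874 genes 7352, 7404 and 7309 were below 0. These comparisons share the WT libraries. The median was -0.11 for K>R 3 without K>R 3 ABA replicate 3, and 0.14 for Delta28 without Delta28 ABA replicate 1. The difference of a single gene had a median SE of 0.41, beside a median ABA response of -0.59, so that depth and replicate number limit what this test could detect. The smallest p-values were those of RPSAA in Delta28 (1.00, SE 0.58, edgeR adjusted p = 1) and in K>R 1-9 (1.02, SE 0.58, edgeR adjusted p = 1), and of AT1G34030 in K>R 3 (-0.78, SE 0.43, edgeR adjusted p = 1). Without WT mock replicate 2 the differences of RPSAA were 0.31 for Delta28 and 0.35 for K>R 1-9.

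Levels in the mutants were also compared with WT within each treatment. In mock leaves no member was called in Delta28 (0.159% of all genes called either way), in K>R 1-9 (0.245%) or in K>R 3 (0.00721%) by edgeR, and DESeq2 called none. At an unadjusted p under 0.05 there were 11 members in Delta28 (8.88% of all genes), 4 in K>R 1-9 (14.4%) and 5 in K>R 3 (12.9%). The median over the 54 was 0.44 for Delta28, -0.18 for K>R 1-9 and 0.28 for K>R 3, against 0.02, -0.01 and 0.01 over all genes. Of the 54 values, 52 were above 0 in Delta28, 17 in K>R 1-9 and 46 in K>R 3. Over all 13874 genes 7253, 6850 and 7063 were above 0. Genes read in the same libraries are not replicates of a genotype. Between libraries of a group the log2 summed level of the 54 had a pooled SD of 0.32. The comparisons in mock leaves share the WT mock libraries, whose sums ranged from 12558 to 19408 CPM. In the same comparison the 8 mesophyll markers had a median of -0.04 in Delta28, -0.19 in K>R 1-9 and -1.41 in K>R 3, where all 8 lay between -1.89 and -0.81, and the 24 plastid ribosomal protein genes one of -0.02, -0.08 and -1.11, none of either list being called. Their part in the values of the 54 genes was not tested. The smallest p-values belonged to AT1G34030 in Delta28 (0.98, SE 0.30, edgeR adjusted p = 0.279), RPL10B in K>R 1-9 (-1.02, SE 0.36, edgeR adjusted p = 0.195) and AT2G43460 in K>R 3 (0.82, SE 0.27, edgeR adjusted p = 0.284). RPL10B stood at 20.4, 10.1 and 15.1 CPM in K>R 1-9 mock leaves, against 24.9, 28.1 and 48.5 CPM in WT mock leaves, which do not overlap.

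In ABA leaves no member was called in Delta28 (0.115% of all genes), K>R 1-9 (0.101%) or K>R 3 (0.00721%) either, while 1 member in Delta28 (8.04% of all genes), 2 in K>R 1-9 (11.4%) and 1 in K>R 3 (8.64%) had an unadjusted p under 0.05. DESeq2 called none there. The median was 0.37 in Delta28, -0.03 in K>R 1-9 and -0.02 in K>R 3. Of the 54 values, 53 were above 0 in Delta28, 25 in K>R 1-9 and 23 in K>R 3. Over all 13874 genes 7125, 6739 and 7041 were above 0. The comparisons in ABA leaves share the WT ABA libraries, and here too genes are not replicates of a genotype. AT4G25740 had the smallest p in K>R 1-9 (-1.22, SE 0.44, edgeR adjusted p = 0.276), at 6.6, 4.73 and 6.34 CPM in K>R 1-9 ABA leaves, against 15, 14 and 17.3 CPM in WT ABA leaves. The S9 gene AT5G39850 had it in K>R 3 (1.25, SE 0.42, edgeR adjusted p = 0.366). Over both treatments, the mean of the 3 mutant lines against WT gave 0 members called by edgeR and by DESeq2, where 1.7% of all genes were called, with a median of 0.15 and 4 members at an unadjusted p under 0.05 (17.4% of all genes).

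The rest of the translation apparatus was examined in lists named by function, whose counts stand beside 21.4% of all genes called lower and 22% called higher in the same comparison. Of 124 tested genes of other cytosolic ribosomal proteins, 104 were called lower in the mean ABA response, with a median of -0.61. Among them AT1G52300, a zinc-binding ribosomal protein, changed by -1.06. Plastid ribosomal proteins, which serve the chloroplast, were called lower in 17 of 24 cases with a median of -0.98, RPL27 changing by -1.17 and RPL4 by -1.28. Of 17 ribosome biogenesis genes 8 were called lower (median -0.65), among them FIB2, a fibrillarin, the enzyme that methylates ribosomal RNA at sites set by guide RNAs (-1.30), and the nucleolar PUM23 (-0.93).

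Translation factors moved in both directions, mostly lower. Of 21, 12 were called lower, above the share over all genes called lower. Only 3 were called higher, below the share over all genes called higher. The median was -0.38. ELF5A-3 (0.48), EIF4A-2 (0.49) and EIF4G (0.22) rose, while the poly(A)-binding protein gene PAB8 (-1.02), AT5G19510 (-0.99) and AT5G12110 (-0.48) fell. Of 8 genes of the TOR pathway and known regulators 1 was called in each direction, shares below those over all genes. S6K2, a kinase of S6, was called higher (1.01, SE 0.28, edgeR adjusted p = 0.00612) and NAC082, a regulator of the response to ribosomal stress, lower (-2.35, SE 0.75, edgeR adjusted p = 0.0153).

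Markers of leaf cell types were read against the same shares, 21.4% of all genes called lower and 22% higher. All 8 mesophyll markers were called lower (median -1.52), with a summed level of 739 to 4285 CPM in ABA libraries, against 2968 to 10410 CPM in mock libraries. Of 7 tested markers of dividing and young cells 2 were called lower, PCNA1 (-0.98) and MCM5 (-1.52), a share close to that over all genes, with sums over the 14 listed of 7.48 to 34.3 CPM in ABA libraries and 17.2 to 43.1 CPM in mock libraries. Of the guard cell markers 1 of 3 tested was called higher and 2 lower, with sums of 140 to 393 CPM in ABA libraries, against 74.9 to 164 CPM in mock libraries. Vascular markers had 1 of 3 called higher (149 to 279 CPM in ABA libraries, 59.2 to 166 CPM in mock libraries) and epidermal markers 1 of 2 (136 to 271 CPM in ABA libraries, 118 to 269 CPM in mock libraries), with PDF1 at 0 in every library, too few markers to set apart from the share over all genes. None of the 3 root markers passed the filter, with sums of 0 to 2.58 CPM in ABA libraries and 0 to 0.608 CPM in mock libraries, SHV2 being at 0 in all. The part of cell type shares in the fall of the ribosomal protein genes was not tested.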

How the data were processed

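Gene levels were measured in 24 leaf libraries, assigned to 8 groups by the genotype and treatment in the labels. Per the labels' protocols, RNA entered the Lexogen QuantSeq FWD kit, which reads the 3′ ends of polyadenylated transcripts, and the submitters' processing notes name RSEM, STAR and Trim Galore. Their versions, the build and the annotation: not given in the sources used here. The authors' files give an expected count, TPM, FPKM and a transcript length per gene, per the file headers. The deposited expected counts, estimates of reads before normalisation, were used; the deposited TPM and FPKM values, scaled by length, were not, since 3′ reads do not accumulate with length. Between 1.21% and 2.36% of values per library were not whole, and counts were rounded.

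TAIR10.1 of RefSeq gave names, strands and promoters; 22233 of 22279 identifiers matched. In 11593 of 11674 genes with 1 transcript (99.3%), and in all 25 such members, the deposited length was the transcript's length less its lowest-coordinate exon. None of 5293 single-exon genes had an entry. Counts cover reads, not molecules, and the floor of 3 counts covers counting error only.

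In R 4.3.3, edgeR 4.0.16 fitted a single quasi-likelihood model, with group means, to the 13874 genes kept by filterByExpr, with TMM scaling (factors 0.886 to 1.14), 16 residual degrees of freedom and a biological coefficient of variation of 0.364. Two-sided p-values were Benjamini-Hochberg adjusted over all genes in each of 15 comparisons. Levels are CPM of library totals. On simulated counts, the calls at known changes were checked for sign. The alternatives were RLE scaling, library totals, no filter, plus-strand genes alone, only the groups compared, a replicate block, leaving out libraries, and DESeq2 1.42.0.

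The members and lists were chosen with earlier results of these data known. Values in every library are given for the 6 members of smallest p in the mean ABA response and their paralogues, and for the L10 family. In the mean ABA response members are named by family. In each other comparison at most the 5 called members of largest change in each direction are named, or, with none called, those of smallest p. RPL10C is also given within each genotype. Lists are the other cytosolic ribosomal proteins, plastid ribosomal proteins, ribosome biogenesis, translation factors, the TOR pathway, and markers of dividing, mesophyll, guard, vascular, epidermal and root cells. No table of protein sequences was used here, and promoter windows were read from the TAIR10.1 genome.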

Additional observations from a re-analysis of the deposited data

How the results depend on the processing

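The count of ribosomal protein genes called in the mean ABA response was 50 of 54. It kept within 1.5 times of that value under RLE scaling, library totals, no filter, the replicate block, DESeq2 and each left-out library (45 to 52), and was 25 of 27 with plus-strand genes alone, the alternative that tests the fewest members. The median of the 54 stayed between -0.66 and -0.44 in all of these, and that of all genes was -0.03 with TMM, -0.06 with RLE and -0.10 with library totals. The summed level gave a log2 ratio of -0.48, -0.42 with effective library sizes and -0.44 with plus-strand genes. Counts within 1 genotype moved more. For ABA against mock in WT, 3 became 0 with plus-strand genes, 1 without K>R 3 mock and WT mock replicate 2 together, 8 with only the groups compared, 6 by DESeq2 and 1 to 5 with 1 library left out. In Delta28, 9 became 1 with plus-strand genes, 5 with only the groups compared, 14 by DESeq2 and 1 to 14 with 1 library left out. In K>R 1-9, 1 became 2 with library totals, 0 with plus-strand genes, 2 with both libraries left out together, 0 with only the groups compared, 5 by DESeq2 and 0 to 4 with 1 library left out. In K>R 3, 20 became 5 with plus-strand genes, 3 with only the groups compared, 34 by DESeq2 and 3 to 27 with 1 library left out. Apart from the smaller sets of genes or samples in some of these, the cause was not tested. Comparisons of mutants with WT and of their responses called 0 members under every alternative. Fits of only the groups compared were not run for the 2 comparisons that use all groups.

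Among the members of smallest p in comparisons without a call, directions reversed in few cases. Other uncalled values were not followed gene by gene. The median response difference of Delta28 from WT also changed sign without Delta28 ABA replicate 1, as given above. Without K>R 3 mock and WT mock replicate 2 together, RPSAA was at 0.33 in Delta28 against WT in mock leaves and at -0.13 in the ABA response of K>R 3 against that of WT, AT4G25740 at 0.03 and AT5G47700 at 0.06 in K>R 3 against WT in mock leaves, and AT5G35530 at -0.27 in the ABA response of K>R 3 against that of WT. Without WT mock replicate 2 alone RPSAA was at 0.33 and AT5G35530 at -0.07, and without K>R 3 ABA replicate 2 AT5G35530 was at -0.01. With each library left out in turn RPSAA ranged from -0.69 to 0.33 in Delta28 against WT in mock leaves, and AT5G35530 from -0.07 to 0.48 in the response of K>R 3.

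Replicate numbers did not pair the samples: of 12 pairs of an ABA and a mock library with the same genotype and number, 2 had correlations over 0.1 (range -0.165 to 0.274). With the replicate block 49 members were called in the mean ABA response and 18 in K>R 3, and no other count of calls changed. With promoters of 250 bases, 20% of the 60 loci held a telo box, 68.3% a site II element and 15% ACGTG. Depth limits low genes most, RPSAb above all.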
